A study of Mus musculus with 3 samples.

Results

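The Ms4a genes encode tetraspanning membrane proteins, and 5 of them, Ms4a4b, Ms4a4c, Ms4a6b, Ms4a6c and Ms4a6d, were followed here across dendritic cell (DC) classes and treatment groups. They are 5 of the 31053 genes in the feature list and 5 of its 19 genes with an Ms4a symbol. They were chosen by name, and the choice rested on measured values, since Ms4a4c and Ms4a6c had been seen to rise with panobinostat in these cells. The panobinostat values of the 5 genes are therefore a description without a test, as is the difference of their panobinostat change between leukemia and wild-type samples.

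Spleens of C57BL/6 mice were processed on a density gradient, sorted for GFP-negative cells, enriched for DCs by magnetic negative selection, and pooled into 1 capture after antibody hashtagging. The 6 hashed samples were leukemia panobinostat 1 and 2, WT panobinostat, leukemia vehicle 1 and 2, and WT vehicle, all after 2 days of treatment. Panobinostat inhibits histone deacetylases, leukemia means mice bearing acute myeloid leukemia (named in the study's title), and WT means wild-type mice. The labels give no age, no sex and no leukemia line, and do not say whether hashed samples are separate animals, so p-values measure the spread between these samples, which may be technical.

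MS4A proteins cross the membrane at 4 segments with both ends in the cytoplasm, and many act beside immune receptors. The founding members are Ms4a1, which encodes the B cell antigen CD20, and Ms4a2, which encodes the beta chain of the high-affinity IgE receptor. In mice, Ms4a4b is known from T and NK cells, where its protein associates with the costimulatory receptor GITR, and the Ms4a6 genes are known from macrophages and other myeloid cells.

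The 5 genes lie together on chromosome 19 (GENCODE vM21, GRCm38) and all are protein coding. On the plus strand, Ms4a4c spans chr19:11404770-11427246, Ms4a4b spans chr19:11443553-11467055, Ms4a6c spans chr19:11469366-11482192 and Ms4a6b spans chr19:11516512-11531256. Ms4a6d lies on the minus strand at chr19:11586604-11604849. The whole stretch measures 200.1 kb. The window reaching 250 kb beyond it on either side holds 37 annotated genes, of which 28 were measured and 14 had 50 or more UMIs (unique molecular identifiers, counts of captured RNA molecules) in kept cells. Ms4a4c and Ms4a4b share 135 of the 1747 distinct 50-base words of Ms4a4c transcripts, 127 of them in the last 400 bases, where 3′ reads fall. Ms4a6c shares 117 of its 2001 words with Ms4a6b, 55 of them in the last 400 bases, and none with Ms4a6d. Ms4a6d and Ms4a6b share 40 words, all 40 in the last 400 bases of Ms4a6b and none in those of Ms4a6d. Reads from these shared stretches cannot be told apart between the 2 genes of a pair, so small values of Ms4a4b beside high Ms4a4c, and of Ms4a6d beside high Ms4a6b, are uncertain. An annotated antisense transcript, BE692007, overlaps Ms4a6c and was not analysed here.

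Promoters of the 4 genes that RefSeq lists are shown as 2 pairs of alike sequence (GRCm38.p6, 250 bases before to 50 after the start). The RefSeq starts of Ms4a4c and Ms4a6b lie inside the gene spans given above, so their windows do not cover the GENCODE gene starts. Ms4a4c and Ms4a4b had the same direction in all 6 main class comparisons below, though Ms4a4b was under the low-count minimum in cDC1-like cells. Ms4a6c and Ms4a6b had folds of opposite sign in pDC-like over cDC1-like cells, but that of Ms4a6c was not called. A link between promoter sequence and level was not tested. Capitals mark a run of bases that both promoters of a pair share and that no other shared run exceeds, 20 bases in the first pair and 48 in the second. The first pair has 2 runs of that length, and the one farther upstream is marked.
Ms4a4c, chr19:11407411-11407710, plus strand: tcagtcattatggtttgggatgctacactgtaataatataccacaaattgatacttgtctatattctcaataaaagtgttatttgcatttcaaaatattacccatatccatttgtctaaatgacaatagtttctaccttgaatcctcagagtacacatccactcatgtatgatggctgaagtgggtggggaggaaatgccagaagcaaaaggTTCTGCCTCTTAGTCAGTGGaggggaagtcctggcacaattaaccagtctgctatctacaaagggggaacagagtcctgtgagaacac
Ms4a4b, chr19:11443308-11443607, plus strand: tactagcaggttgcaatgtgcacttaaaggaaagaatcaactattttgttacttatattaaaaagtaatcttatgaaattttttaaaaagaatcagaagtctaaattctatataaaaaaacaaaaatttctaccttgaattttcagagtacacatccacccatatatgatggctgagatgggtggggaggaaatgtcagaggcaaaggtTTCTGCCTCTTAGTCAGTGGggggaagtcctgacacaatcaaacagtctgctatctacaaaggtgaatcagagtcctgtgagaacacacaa
Ms4a6c, chr19:11469118-11469417, plus strand: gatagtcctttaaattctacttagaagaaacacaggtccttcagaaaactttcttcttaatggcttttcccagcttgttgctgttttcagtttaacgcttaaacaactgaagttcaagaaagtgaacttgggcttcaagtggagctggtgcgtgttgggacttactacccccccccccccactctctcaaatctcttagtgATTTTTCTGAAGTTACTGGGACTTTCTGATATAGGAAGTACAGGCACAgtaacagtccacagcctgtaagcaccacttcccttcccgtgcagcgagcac
Ms4a6b, chr19:11518309-11518608, plus strand: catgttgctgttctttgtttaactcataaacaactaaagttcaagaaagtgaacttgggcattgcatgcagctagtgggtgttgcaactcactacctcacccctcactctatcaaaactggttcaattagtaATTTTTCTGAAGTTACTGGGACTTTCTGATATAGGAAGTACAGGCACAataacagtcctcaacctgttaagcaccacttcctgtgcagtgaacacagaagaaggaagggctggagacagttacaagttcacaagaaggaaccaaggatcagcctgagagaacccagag
The marked run began 38 bases before the start in Ms4a4c and 41 before it in Ms4a4b, and 49 bases before the start in Ms4a6c and 118 before it in Ms4a6b. Of 4 motifs searched on both strands, the PU.1 core GAGGAA was found in Ms4a4c and in Ms4a4b, 61 and 64 bases before the start. It is held by 28.3% of 32817 promoters. The interferon response element (GAAA, any 2 bases, GAAA, held by 3.43% of promoters), the GAS element TTCNNNGAA (8.29%) and the C/EBP motif TTGCNNAA (10.8%) did not occur in these 4 windows.

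Of 38717 barcodes with 426901103 gene UMIs, 19199 cells passed the filters. Hashed samples held 1711 to 6797 kept cells with a median of 5264 to 11884 UMIs. Leukemia vehicle 2 stood apart, with the highest median UMIs and the fewest counts of its own hashtag, a median of 140 against 353 to 765 in the other samples. Ms4a genes, Tmem176a, Tmem176b and interferon-stimulated genes were left out of the clustering. Class names carry "-like" since RNA markers, not a sort, define them. The 4 DC-like classes were cDC2-like (4084 cells), mature DC-like (3515), pDC-like (2851) and cDC1-like (3253). Over 2-fold above all other cells were 10 of 13 cDC2 markers, 14 of 14 mature DC markers, 12 of 12 pDC markers and 10 of 12 cDC1 markers. Clec10a and Clec12a, both in the cDC2 set, were lower in cDC2-like cells than elsewhere (5.01 against 30.3 and 27.1 against 107 CPM, a gene's UMIs scaled to a common library total). The pDC-like class had only 40 cells in WT panobinostat.

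Ms4a4c, Ms4a6c and Ms4a6b were higher in cDC2-like cells and in part of the mature DC-like cells than in cDC1-like cells. Levels are CPM of UMIs summed per class and hashed sample, given as mean ± SD over the 6 hashed samples unless stated. Ms4a6c was the most abundant member in each of these classes. Its level was 391 ± 60.2 CPM in cDC2-like cells (lowest 293, median 415, highest 456), 169 ± 93.5 in mature DC-like (38.3, 199.6, 277), 66.0 ± 10.8 in pDC-like (50.2, 69.8, 75.8) and 32.0 ± 14.8 in cDC1-like cells (18.8, 26.7, 54.1). Samples of cDC2-like cells did not overlap with those of any other DC-like class for Ms4a6c, whereas pDC-like and cDC1-like samples overlapped. Counts from a 3′ library are per molecule, so levels of different genes can be read side by side only as captured UMIs.

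Ms4a4c reached 213 ± 40.2 CPM in cDC2-like cells (155, 218, 257), 109 ± 56.6 in mature DC-like (28.3, 141, 154), 51.6 ± 16.7 in pDC-like (38.9, 42.4, 80.3) and 6.74 ± 3.70 in cDC1-like cells (3.08, 5.14, 12.2). All cDC2-like samples exceeded all mature DC-like samples, and all pDC-like samples exceeded all cDC1-like samples. Ms4a6b had 129 ± 26.1 CPM in cDC2-like, 54.4 ± 27.0 in mature DC-like, 9.77 ± 2.81 in cDC1-like and 5.74 ± 1.90 in pDC-like cells. In contrast to Ms4a4c, Ms4a6b was lower in pDC-like cells than in cDC1-like ones, although their sample ranges overlapped (4.09 to 9.31 and 7.15 to 14.8).

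Ms4a4b and Ms4a6d were scarce in DCs. Ms4a4b had 13.5 ± 4.23 CPM in cDC2-like, 6.35 ± 3.82 in mature DC-like, 2.38 ± 1.68 in pDC-like and 0.576 ± 0.427 in cDC1-like cells. Ms4a6d had 6.26 ± 5.47 CPM in mature DC-like, 3.38 ± 1.29 in cDC2-like, 0.393 ± 0.619 in cDC1-like and 0.154 ± 0.277 in pDC-like cells, where 4 of 6 samples held none. All kept cells held few UMIs of each, 789 for Ms4a4b and 302 for Ms4a6d.

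Outside the DC-like classes, the members separated by cell type. Ms4a4b was highest in NK cell-like cells at 259 ± 152 CPM (n = 5 samples), 84.5 in the lowest sample and 476 in the highest. That cluster was led by Nkg7, Xcl1, Mpo, Gzma and Prtn3, with 10 of 10 NK cell markers and 8 T cell markers raised. Mpo belongs to the neutrophil marker set, and the part of other cell types in the levels there was not tested. The median doublet score was 0.336 in the NK cell-like and 0.273 in the red pulp macrophage-like cluster, against 0.0604 in the Mmp9-led cDC2-like cluster, the largest of that class, and its part in these levels was not tested. The mean of Ms4a6c and of Ms4a6b was highest in red pulp macrophage-like cells, which 2 samples held in sufficient number, both WT. Ms4a6c had 465 CPM in WT panobinostat and 414 in WT vehicle, and Ms4a6b had 226 in WT panobinostat and 133 in WT vehicle, and both overlapped the cDC2-like samples. Ms4a6d was also highest there, with 18.8 CPM in WT panobinostat and 12.1 in WT vehicle. Ms4a4c in B cell-like cells averaged 101 ± 48.5 CPM and in NK cell-like cells 100.4 ± 60.6 CPM, with sample ranges that overlapped those of mature DC-like cells. Erythroid-like cells had 3.22 to 8.61 CPM on average of Ms4a4c, Ms4a6b and Ms4a6c, a class that should lack these genes. Within that class the Chga-led cluster had the most, 10.6, 5.72 and 18.5 CPM pooled. Whether all of this is background was not tested.

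**Figure D1:**
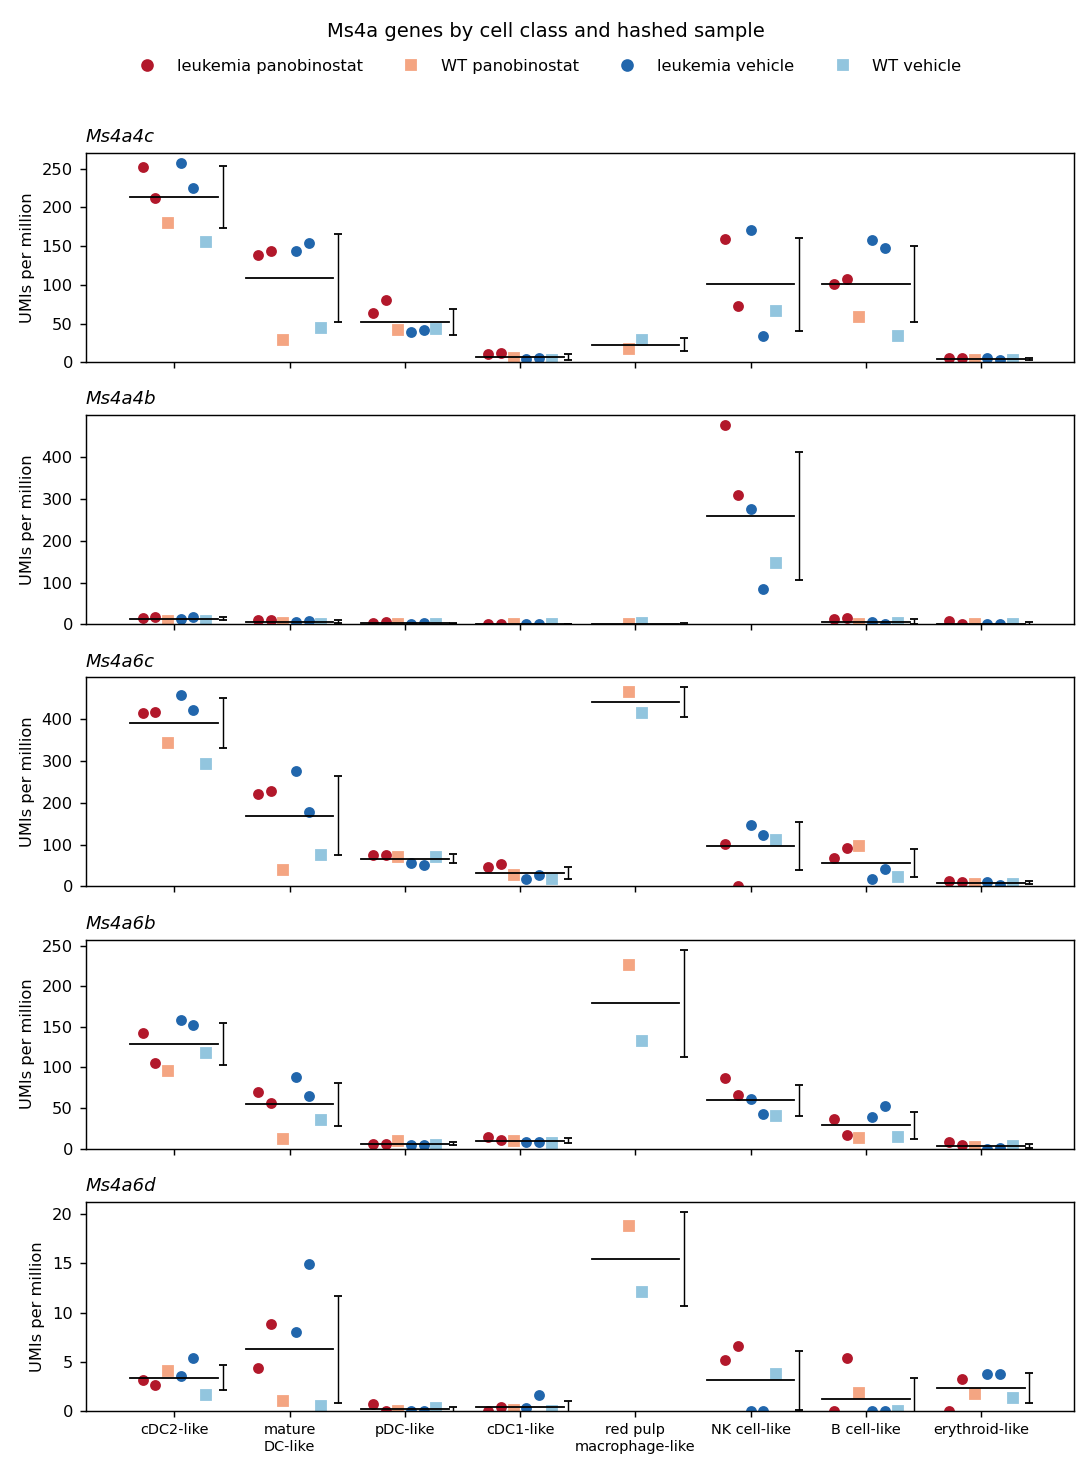
CPM (linear axes) of each Ms4a gene in 8 cell classes. Points are hashed samples with 20 or more cells of the class, lines are means and the bars beside them are SDs. Ms4a4c, Ms4a6c and Ms4a6b stand high in cDC2-like cells, Ms4a4b in NK cell-like cells.

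Between DC-like classes, UMIs were summed per class and sample and tested with edgeR's quasi-likelihood test, with the hashed sample as a block. A gene was called at an adjusted p (Benjamini-Hochberg over 10217 genes) under 0.05 and a fold of 2 or more. All 5 members entered this fit. No cDC1-like sample of Ms4a4b, and no pDC-like or cDC1-like sample of Ms4a6d, reached the minimum of the filter on low counts, so both entered through the other classes. Their folds over those classes are given as values and left out of the counts. In cDC2-like over pDC-like cells, Ms4a4c, Ms4a6c, Ms4a6b and Ms4a4b were called higher, against 15.1% of all genes tested. The log2 fold changes were 2.25 ± 0.20 (SE) for Ms4a4c, 2.71 ± 0.24 for Ms4a6c, 4.89 ± 0.23 for Ms4a6b, 2.61 ± 0.25 for Ms4a4b and 4.11 ± 0.73 for Ms4a6d. In cDC2-like over cDC1-like cells, Ms4a4c, Ms4a6c and Ms4a6b were called higher (12.0% of all genes). The folds there were 4.65 ± 0.23 for Ms4a4c, 3.25 ± 0.23 for Ms4a6c, 3.26 ± 0.17 for Ms4a6b, 4.33 ± 0.28 for Ms4a4b and 3.22 ± 0.58 for Ms4a6d (log2).

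In mature DC-like cells Ms4a4c, Ms4a6c and Ms4a6b were called higher than in pDC-like cells (20.5% of all genes) and than in cDC1-like cells (17.0%). Over pDC-like cells the log2 fold was 1.36 ± 0.21 for Ms4a4c, 1.63 ± 0.24 for Ms4a6c and 3.81 ± 0.26 for Ms4a6b, and Ms4a4b was also called higher, at 1.66 ± 0.30. The pairs were also fitted without the Wfdc21-led cluster described below, a choice made after the data were seen. Without it the folds over pDC-like cells were -0.05 ± 0.18 for Ms4a4c and 0.15 ± 0.19 for Ms4a6c (edgeR adjusted p 0.816 and 0.491), and of the 4 members tested only Ms4a6b was called, at 2.64 ± 0.27. The adjusted p over the other alternatives reached down to 2.03e-41 for Ms4a4c and 4.17e-65 for Ms4a6c, both without the low-count filter. Without the Wfdc21-led cluster, Ms4a6c was also under 2-fold over cDC1-like cells, at 0.76 ± 0.18.

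In cDC2-like over mature DC-like cells, Ms4a6c (1.09 ± 0.21) and Ms4a6b (1.08 ± 0.15) were called higher, 2 of 5 members against 13.7% of all genes. Ms4a4c (0.88 ± 0.18) and Ms4a4b (0.95 ± 0.20) passed the adjusted p but not the fold, and Ms4a6d gave -0.73 ± 0.37 (edgeR adjusted p 0.0825). The 2 called folds lie just past 2-fold, the 2 uncalled ones just under it, and the number called ran from 1 to 4 among the alternatives (4 without leukemia panobinostat 2, 1 without WT vehicle and 1 without WT panobinostat). The pDC-like over cDC1-like pair split the family. Ms4a4c (2.40 ± 0.27) was called higher, against 13.9% of genes, and Ms4a6b was called lower at -1.64 ± 0.31, against 14.7% of genes. Ms4a4b gave 1.72 ± 0.43, a value left out of the counts since no cDC1-like sample reached the low-count minimum. Ms4a6c gave 0.54 ± 0.26 (edgeR adjusted p 0.0703) and Ms4a6d -0.89 ± 1.19 (0.527).

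Detection per cell followed the same order. After each cell was thinned to 2000 UMIs, Ms4a6c had a UMI in 47.8% of 4004 cDC2-like cells (exact binomial 95% interval 46.2 to 49.4%), 15.7% of 3289 mature DC-like (14.5 to 17.0%), 10.5% of 2827 pDC-like (9.37 to 11.7%) and 4.72% of 3221 cDC1-like cells (4.01 to 5.51%). The share in 1967 erythroid-like cells, which should lack it, was 1.32% (0.865 to 1.93%). Ms4a4c was seen in 30.3% of cDC2-like, 11.0% of mature DC-like, 8.74% of pDC-like and 1.02% of cDC1-like cells, against 0.508% of erythroid-like cells. Ms4a6b was seen in 20.6%, 7.87%, 0.849% and 1.52% of the same classes, against 0.458% of erythroid-like cells, so its pDC-like share lay close to background. Ms4a6d in pDC-like cells was 0 of 2827, which allows a share of up to 0.106% (3 counts), and without thinning 3 of 2851 cells held a UMI. Its share was 0.549% in cDC2-like and 0.610% in erythroid-like cells, but for Ms4a6d the erythroid-like share cannot serve as background. Pooled without thinning, Ms4a6d had 2.60 CPM in erythroid-like cells (2.08 to 3.22), against 0.185 in pDC-like and 0.181 in cDC1-like cells. Without thinning, Ms4a6c was seen in 76.9% of cDC2-like, 22.2% of mature DC-like, 25.3% of pDC-like and 20.7% of cDC1-like cells. Median UMIs per cell were 5470, 4396, 5161 and 10215 in those classes, and 16538 in erythroid-like cells. These intervals cover counting error only.

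Among the thinned mature DC-like cells, Ms4a6c had a UMI in 63.4% of the 363 cells with Ms4a4c and in 9.77% of the cells without it. In cDC2-like cells the shares were 53.9% of 1214 cells with Ms4a4c and 45.2% of those without. The cells were not independent samples, and these shares are a description.

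Within the classes, levels differed by cluster. The cDC2-like class held a Retnla-led, a Cep55-led and an Mmp9-led cluster. Pooled Ms4a6c was 487 CPM in the Retnla-led cluster (exact Poisson 95% interval 469 to 505), 361 in the Cep55-led and 310.4 in the Mmp9-led cluster, and Ms4a4c was 212, 210.4 and 186 CPM in the same clusters. Ms4a6d showed the widest contrast, 8.79 CPM (6.50 to 11.6) in the Retnla-led, 0.736 in the Cep55-led and 1.07 in the Mmp9-led cluster. The Retnla-led cluster, led also by Clec4b1, Clec4a3, Wfdc17 and Csf1r, had 6 monocyte markers raised beside 9 of 13 cDC2 markers.

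The mature DC-like class was divided more sharply. The Wfdc21-led cluster (523 cells, led also by Lta, Ighg2b, Ppfia3 and Fam89a, with 11 of 14 mature DC markers raised) had 693 CPM of Ms4a6c (659 to 727), 422 of Ms4a4c (396 to 449), 207 of Ms4a6b and 23.5 of Ms4a6d. The Dkk2-led cluster (1133 cells) had 133, 94.6, 63.5 and 1.57 CPM of these genes. The Ccl17-led, Prph-led and Elobl-led clusters had 5.89 to 19.5 CPM of Ms4a6c. The Ms4a genes took no part in the clustering. An unnamed cluster of 352 cells led by Cd209e, Ccr1 and Ly6i had the highest Ms4a6c of the clusters with 100 or more cells, 752 CPM (718 to 787), with 64.5 CPM of Ms4a4c and none of Ms4a6d.

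**Figure D2:**
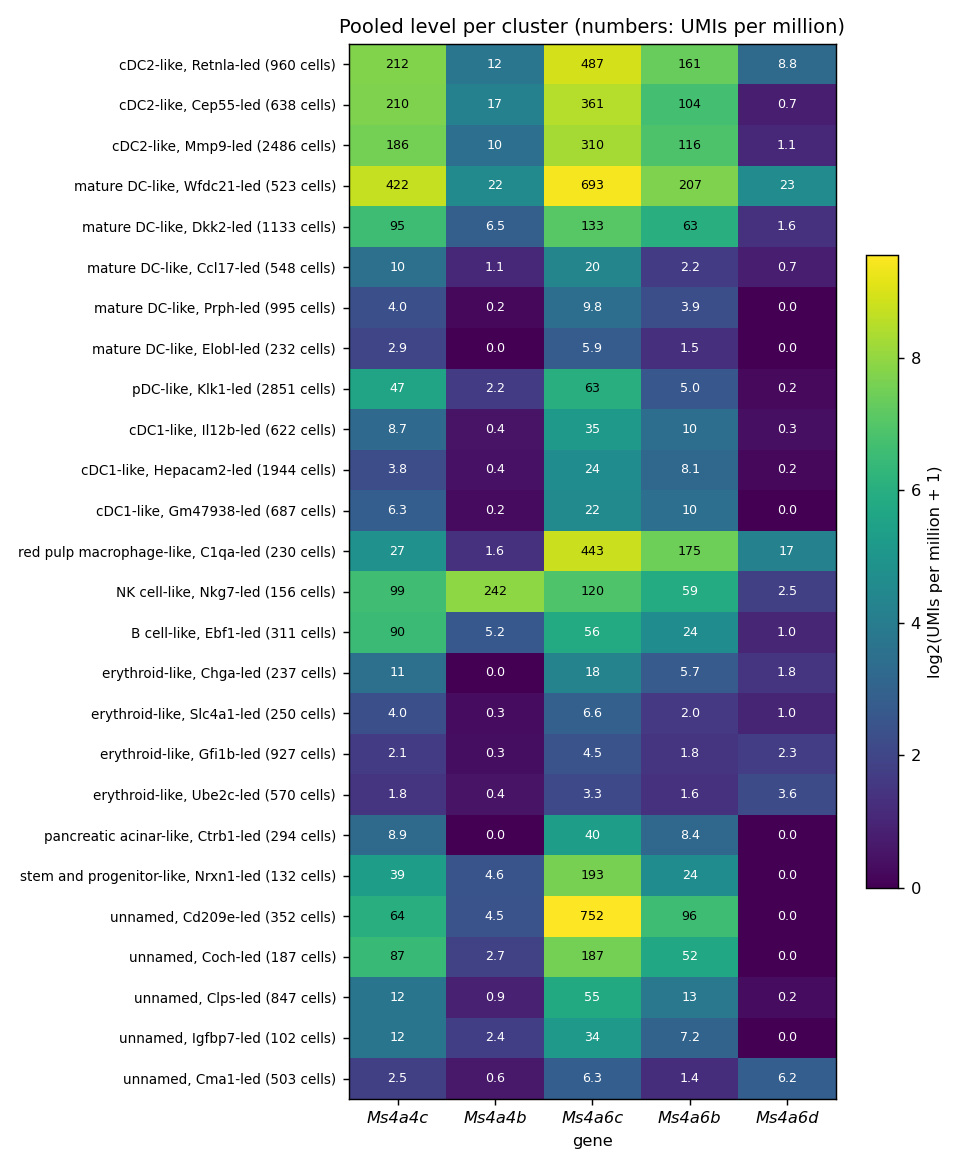
Pooled CPM of the 5 Ms4a genes in each cluster with 100 or more cells, printed in each cell and coloured on a log2(CPM + 1) scale. Rows name the class, the leading gene and the cell number. The Wfdc21-led mature DC-like, the Cd209e-led unnamed, the Retnla-led cDC2-like and the red pulp macrophage-like cluster hold the highest Ms4a6c.

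In leukemia against WT, a comparison the choice of genes did not use, Ms4a4c, Ms4a6c and Ms4a6b were higher in mature DC-like cells. Ms4a4c had 138, 144, 144 and 154 CPM in leukemia samples (panobinostat 1 and 2, vehicle 1 and 2), against 28.3 CPM in WT panobinostat and 44.2 in WT vehicle. Ms4a6c had 221, 227, 277 and 178 CPM in leukemia samples, against 38.3 in WT panobinostat and 74.8 in WT vehicle. Ms4a6b had 69.7, 56.6, 88.2 and 64.6 CPM in leukemia samples, against 12.3 in WT panobinostat and 35.0 in WT vehicle. The 4 leukemia samples lay above both WT samples for these genes, and the share of all genes with such a gap was not taken. The scarcer Ms4a4b had 5.48 to 11.0 CPM in leukemia samples, against 1.56 and 2.66 CPM in WT samples, and Ms4a6d had 4.32 to 14.9 CPM in leukemia samples, against 0.467 and 0.999 CPM in WT samples. Between treatment or disease groups a gene was called at an adjusted p under 0.05, with no limit on the fold. By edgeR's quasi-likelihood test with treatment as covariate, the log2 fold was 1.92 ± 0.14 for Ms4a4c (adjusted p 1.13e-05), 1.95 ± 0.19 for Ms4a6c (1.05e-04), and 1.53 ± 0.21 for Ms4a6b (0.00102). These 3 were called higher, against 0.954% of 9012 genes, also by DESeq2 and with each sample left out in turn. Ms4a4b and Ms4a6d passed the low-count filter through the leukemia samples alone, so their folds, 1.88 ± 0.36 and 3.58 ± 0.60, are given as values.

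The share of the Wfdc21-led cluster differed in the same direction. It made up 24.8%, 23.6%, 35.9% and 23.6% of mature DC-like cells in leukemia panobinostat 1 and 2 and leukemia vehicle 1 and 2, against 3.76% in WT panobinostat and 5.27% in WT vehicle. It held 69.0% to 84.7% of the class's Ms4a4c UMIs in the leukemia samples, against 57.6% in WT panobinostat and 26.1% in WT vehicle. With that cluster left out, a choice made after the data were seen, Ms4a4c had 55.4, 31.5, 36.3 and 29.4 CPM in the leukemia samples, against 12.4 in WT panobinostat and 34.2 in WT vehicle, and the groups overlapped. No member was then called, against 0.0486% of 8226 genes, with log2 folds of 0.74 ± 0.29 for Ms4a4c, 0.48 ± 0.27 for Ms4a6c and 0.30 ± 0.34 for Ms4a6b (edgeR adjusted p 0.994 each, the highest of the alternatives). Ms4a4b and Ms4a6d were then under the low-count filter. Inside the cluster, Ms4a6c had 714, 839, 734 and 741 CPM in the leukemia samples, against 483 in WT panobinostat (21 cells) and 392 in WT vehicle (74 cells), with no test run there.

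Sums of red pulp macrophage, monocyte and NK cell markers in mature DC-like cells are set beside these values. The cDC2 markers were not summed there. The 12 red pulp macrophage markers summed to 87.7 to 117 CPM in leukemia samples, against 93.2 and 107 CPM in WT samples, with 8 to 10 markers seen in each leukemia sample and 10 in each WT sample. The 12 monocyte markers summed to 87.3 to 142 CPM in leukemia samples, against 106 and 154 CPM in WT samples. The 10 NK cell markers summed to 21.1 to 49.4 CPM in leukemia samples, against 31.3 CPM in WT panobinostat and 17.3 in WT vehicle. Vsig4 and Mertk of the macrophage list, and Fcgr1 and Chil3 of the monocyte list, were at 0 in every sample. The median doublet score of the Wfdc21-led cluster was 0.101, against 0.0751 in the Dkk2-led and Prph-led clusters and 0.147 in the Cep55-led cluster. The part of these in the result was not tested.

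**Figure D3:**
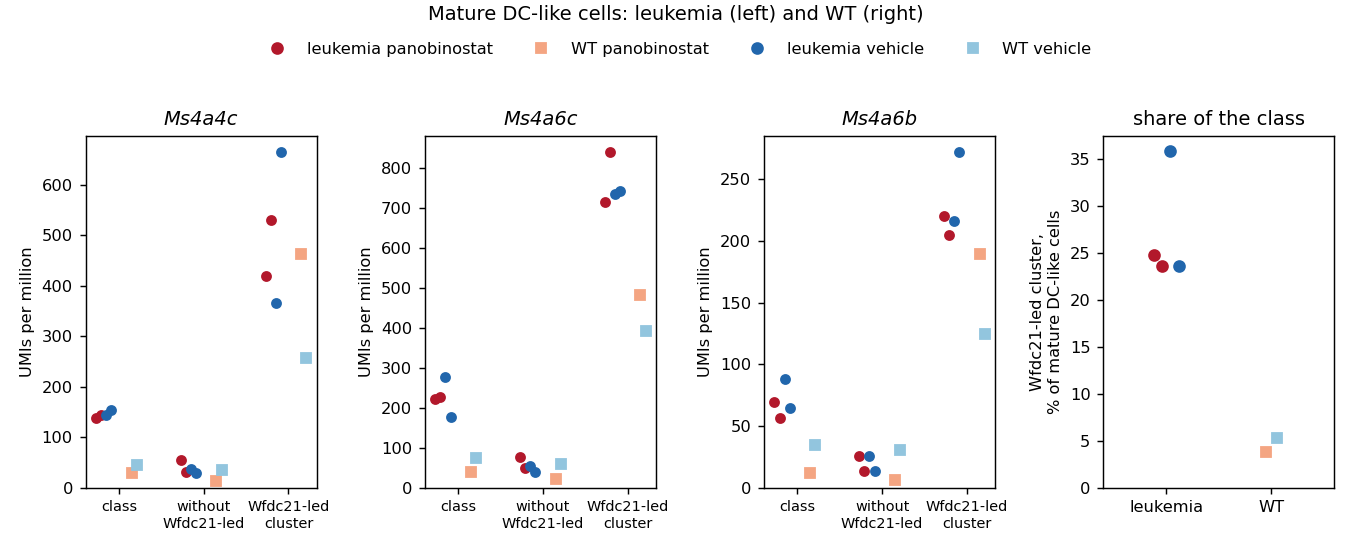
CPM of Ms4a4c, Ms4a6c and Ms4a6b in mature DC-like cells, in the whole class, without the Wfdc21-led cluster, and in that cluster, with leukemia samples left and WT samples right at each position. The right panel gives the cluster's share of the class, 23.6% or more in leukemia samples and at most 5.27% in WT samples.

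In cDC2-like cells, Ms4a4c had 252, 212, 257 and 225 CPM in leukemia samples (panobinostat 1 and 2, vehicle 1 and 2), against 179.9 in WT panobinostat and 155 in WT vehicle. Ms4a6c had 414, 416, 456 and 422 CPM in leukemia samples, against 344 in WT panobinostat and 293 in WT vehicle. Leukemia samples lay above WT samples for Ms4a4c, Ms4a6c and Ms4a4b, but the edgeR adjusted p missed 0.05. The share of all genes with such a gap was not taken here either. The log2 folds were 0.49 ± 0.10 for Ms4a4c (adjusted p 0.0851), 0.41 ± 0.09 for Ms4a6c (0.0886), 0.37 ± 0.11 for Ms4a6b (0.31) and 0.79 ± 0.20 for Ms4a4b (0.196). No member of 5 was called by edgeR or by DESeq2, against 0.0716% of 9783 genes called higher by edgeR. An unadjusted edgeR p under 0.05 was held by 4 members, against 739 of 9783 genes in either direction. Without leukemia vehicle 2, 2 members were called, and the share of all genes called in that fit is not given here. The cDC2-like clusters also differed in share, the Retnla-led one making up 22.9% to 36.8% of the class in leukemia samples, against 13.5% in WT panobinostat and 20.3% in WT vehicle.

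In cDC1-like cells, Ms4a4c gave 0.75 ± 0.23 (log2 fold, edgeR adjusted p 0.0588) and Ms4a6c 0.51 ± 0.15 (0.0507), and neither was called. Ms4a4b and Ms4a6d were under the low-count filter there and in pDC-like cells, so 3 members were tested in each class. The number called was 0 of 3 in cDC1-like cells, against 2.05% of 9207 genes called higher, and 0 of 3 in pDC-like cells, against 0.238% of 9258 genes. In pDC-like cells Ms4a6c had 75.6, 75.8, 55.1 and 50.2 CPM in leukemia samples, against 69.9 and 69.7 CPM in WT panobinostat and WT vehicle. DESeq2 also called none. By edgeR, 2 members in cDC1-like cells had an unadjusted p under 0.05, against 1570 of 9207 genes in either direction. In pDC-like cells 1 member did, against 665 of 9258 genes. Without leukemia vehicle 1, 1 member was called in cDC1-like cells, and the share of all genes called in that fit is not given here.

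For panobinostat against vehicle, the contrast that led to the choice of Ms4a4c and Ms4a6c, values are given without a test. In cDC1-like cells Ms4a4c had 10.5, 12.2 and 5.43 CPM in leukemia panobinostat 1 and 2 and WT panobinostat, against 4.35, 4.86 and 3.08 CPM in leukemia vehicle 1 and 2 and WT vehicle. The vehicle values and that of WT panobinostat lay within the range of erythroid-like samples, 2.28 to 5.68 CPM. All 3 panobinostat samples lay above all 3 vehicle samples, and the fitted log2 fold was 1.10 ± 0.23. The share of all genes with such a gap was not taken. Ms4a6c had 46.5, 54.1 and 26.4 CPM with panobinostat, against 18.8, 27.1 and 19.0 CPM with vehicle, at a fold of 0.88 ± 0.15, and the ranges overlapped by WT panobinostat and leukemia vehicle 2. Ms4a6b had 14.8, 11.1 and 9.18 CPM with panobinostat, against 7.89, 8.50 and 7.15 CPM with vehicle (0.55 ± 0.18). Of 8955 genes in this fit, 0.927% were called higher. Beside these values, red pulp macrophage markers in cDC1-like cells summed to 64.6, 88.1 and 73.2 CPM with panobinostat, against 49.2, 38.9 and 70.7 CPM with vehicle, with Vsig4 at 0 in every sample, and their part was not tested.

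In pDC-like cells the leukemia and WT samples parted. Ms4a4c had 63.6 and 80.3 CPM in leukemia panobinostat 1 and 2, against 38.9 and 42.1 CPM in leukemia vehicle 1 and 2, whereas it had 41.9 CPM in WT panobinostat (40 cells, 9 UMIs), against 42.7 CPM in WT vehicle. Ms4a6c had 75.6 and 75.8 CPM in leukemia panobinostat 1 and 2, against 55.1 and 50.2 CPM in leukemia vehicle 1 and 2, and 69.9 CPM in WT panobinostat, against 69.7 CPM in WT vehicle. The fitted log2 folds over all 6 samples were 0.73 ± 0.14 for Ms4a4c, 0.47 ± 0.12 for Ms4a6c and 0.47 ± 0.38 for Ms4a6b. Of all genes in this fit, 0.134% were called higher.

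In cDC2-like cells, where the genes were most abundant, panobinostat and vehicle samples overlapped for all 5 members. The log2 fold was 0.09 ± 0.10 for Ms4a4c, 0.08 ± 0.08 for Ms4a6c and -0.26 ± 0.11 for Ms4a6b, and 0.0420% of genes were called higher. Monocyte markers there summed to 467, 460 and 560 CPM with panobinostat, against 1138, 1065 and 687 CPM with vehicle, with Chil3 at 0 in 5 of 6 samples, and their part was not tested. In mature DC-like cells the folds were -0.15 ± 0.13, -0.24 ± 0.17 and -0.55 ± 0.20 for the same genes, and 0.104% of genes were called higher. There Ms4a6c had 221, 227 and 38.3 CPM in leukemia panobinostat 1 and 2 and WT panobinostat, against 277, 178 and 74.8 CPM in leukemia vehicle 1 and 2 and WT vehicle.

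**Figure D4:**
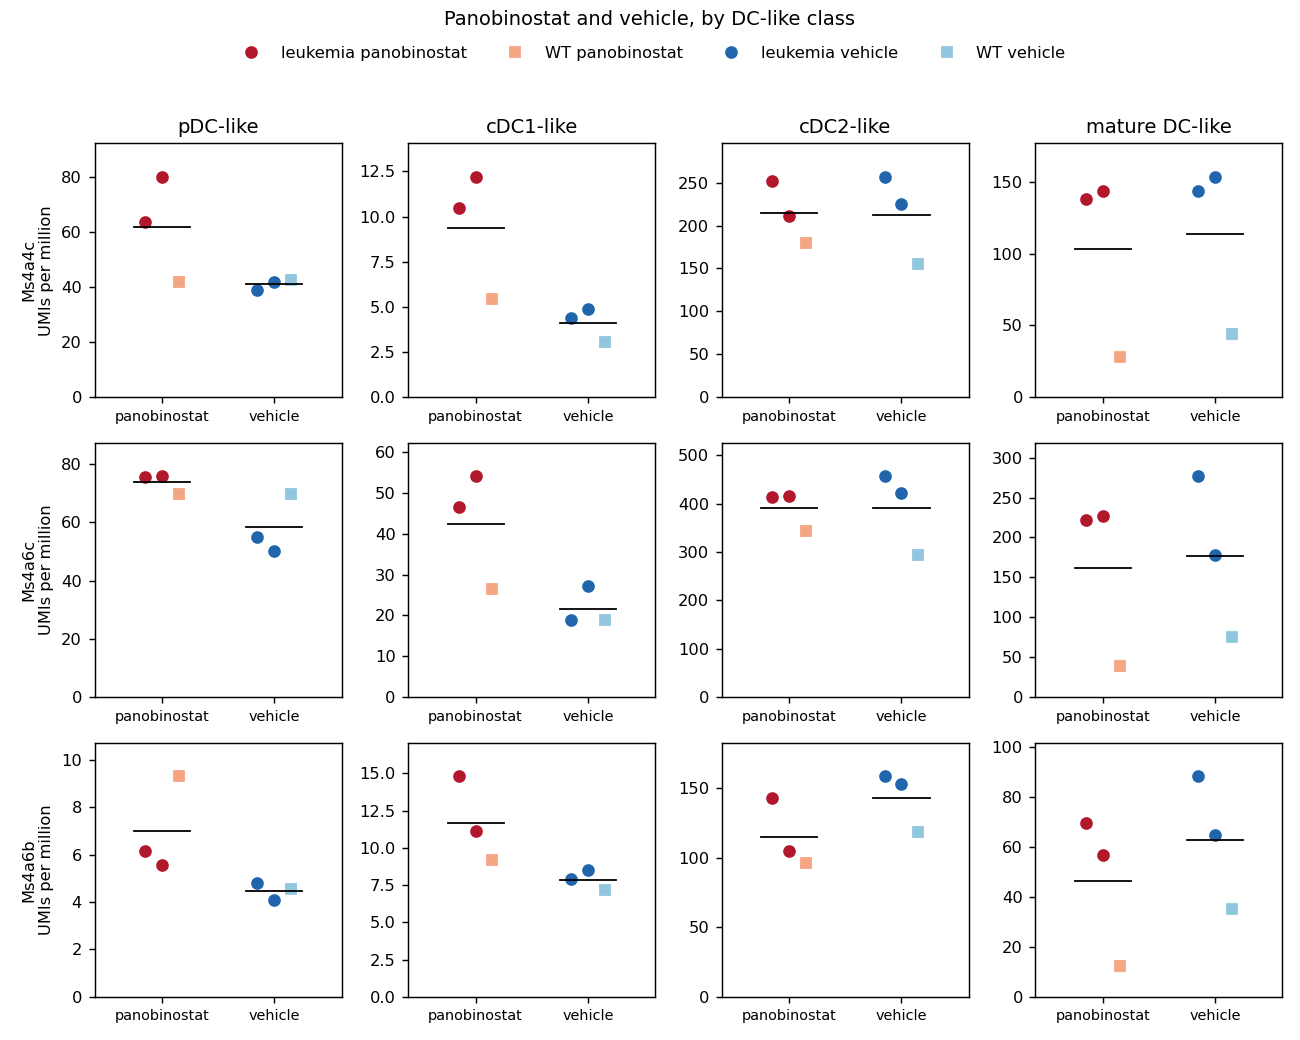
CPM of Ms4a4c, Ms4a6c and Ms4a6b in 4 DC-like classes, panobinostat samples left and vehicle samples right, with lines at the means of 3 samples. The cDC1-like panobinostat samples of Ms4a4c lie at 5.43 to 12.2, above the vehicle samples at 3.08 to 4.86, while the cDC2-like samples overlap. Ms4a4c and Ms4a6c were chosen on this contrast, and no test was run.

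The panobinostat change in leukemia samples less that in WT samples was fitted as an interaction. It holds the panobinostat values on which Ms4a4c and Ms4a6c were chosen, and WT has 1 sample per treatment, so the members' values are a description. Of all genes, 0.293% were called higher in mature DC-like, 0.0689% in cDC2-like, 0.0898% in pDC-like and 0.407% in cDC1-like cells. The log2 difference was 0.84 ± 0.48 for Ms4a4c and 0.53 ± 0.38 for Ms4a6c in pDC-like cells, and 0.52 ± 0.49 for Ms4a4c and 0.72 ± 0.24 for Ms4a6c in cDC1-like cells. In mature DC-like cells it was 0.52 ± 0.26 for Ms4a4c, 0.86 ± 0.28 for Ms4a6c and 1.14 ± 0.34 for Ms4a6b. With the Wfdc21-led cluster left out of the mature DC-like class, a choice made after the data were seen, the differences were 1.81 ± 0.41 for Ms4a4c, 1.78 ± 0.34 for Ms4a6c and 2.24 ± 0.52 for Ms4a6b, where 0.395% of 8866 genes were called higher. Beside it, the Dkk2-led cluster, the next in Ms4a level, made up 31.4% and 19.4% of the class in leukemia panobinostat 1 and 2 and 28.9% and 31.8% in leukemia vehicle 1 and 2, against 12.7% in WT panobinostat and 44.7% in WT vehicle. Its part in these differences was not tested.

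The genes whose pattern lay closest were found by Pearson correlation of log2(CPM + 1) over 24 class and sample profiles, which share libraries and class structure, among 7117 genes. Closest to Ms4a4c were Ifi27 (r = 0.962), an interferon-induced gene, Pou2f2 (0.952), a lymphoid transcription factor, Casp1 (0.952), the inflammasome protease, Ptpro (0.949) and Ifit1 (0.937), an interferon-induced antiviral gene. Closest to Ms4a6c were Dock10 (0.948), Tuba1b (0.930), Ddx58 (0.928), which encodes the RNA sensor RIG-I, Mrpl13 (0.920) and Dnmt1 (0.916). Closest to Ms4a6b were Sirpb1c (0.966), Lst1 (0.961), Haus8, Arhgef2 and Limd2. Ms4a4b was nearest to Klri2 (0.932), an NK receptor gene, and Ms4a6d to Wfdc17 (0.894) and Ccl9 (0.859). Among the members, Ms4a4c and Ms4a6c were the closest pair (0.947) and Ms4a4c and Ms4a6d the most distant (0.677).

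A list of 40 interferon-stimulated genes was set beside the members, since the study's title names IFNAR, the type I interferon receptor, and 39 of them are in the feature list. In leukemia over WT, 16 of 30 list genes tested were called higher in cDC1-like cells (Ifi27l2a 0.98 ± 0.10, Slfn5 1.07 ± 0.12, Ly6a 1.18 ± 0.15 and Irf7 0.96 ± 0.14, log2), against 2.05% of all genes. The counts were 3 of 33 in pDC-like cells (0.238% of all genes), 1 of 37 in cDC2-like cells (0.0716%) and 2 of 32 in mature DC-like cells (0.954%), and none was called lower. The list's median log2 fold was 0.68 in cDC1-like cells, against 0.013 over all genes, and 0.38 in mature DC-like cells, against 0.0016 over all genes. With panobinostat, 3 of 29 list genes were called higher in cDC1-like cells (Ifi27l2a 0.76 ± 0.10, Ly6a 0.98 ± 0.14 and Zbp1 0.57 ± 0.13), against 0.927% of all genes, and none in the other classes. The list's median fold there was 0.11, against -0.0054 over all genes.

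Of the other family members, 4 Ms4a genes had 50 or more UMIs. Ms4a7, a macrophage gene, had 214 ± 19.4 CPM in red pulp macrophage-like cells (n = 2), 35.2 ± 22.5 in mature DC-like and 7.94 ± 3.98 in cDC2-like cells. It was called higher in leukemia over WT in mature DC-like cells, at a log2 fold of 2.60 ± 0.21 (edgeR adjusted p 1.13e-05), against 0.954% of 9012 genes. Its fold without the Wfdc21-led cluster is not given here. Ms4a1 was highest in B cell-like cells at 883 ± 218 CPM, and Ms4a2 averaged 155 ± 106 CPM in erythroid-like cells. Pooled, Ms4a2 had 228 CPM in erythroid-like cells (223 to 234) and 220 in the 31 mast cell and basophil-like cells (148 to 316). The Gfi1b-led, Ube2c-led and Chga-led erythroid-like clusters each had 3 mast cell and basophil markers raised. Ms4a3 averaged 6.20 CPM in NK cell-like samples with 20 or more cells (n = 5), and 33.4 CPM (23.9 to 45.5) on 40 UMIs when all 156 NK cell-like cells were pooled. Mpo and Prtn3 were among the leading genes of that cluster. The related Tmem176a and Tmem176b, whose proteins share the tetraspanning fold, averaged 1421 ± 100.1 and 1142 ± 100.4 CPM in mature DC-like cells, and 416 ± 112 and 465 ± 129 CPM in cDC2-like cells. In leukemia over WT both were called lower in cDC1-like cells, at -0.69 ± 0.17 (edgeR adjusted p 0.0135) and -0.90 ± 0.15 (3.92e-04). There 341 of 9207 genes were called lower. In the interaction fit of that class the log2 difference was 1.12 ± 0.26 for Ms4a1 and 1.22 ± 0.21 for Tmem176a. With 1 WT sample per treatment, these 2 values are a description.

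Genes of proteins reported to associate with MS4A proteins were read in the same classes. Tnfrsf18, which encodes GITR, had 48.0 CPM pooled in mature DC-like cells (44.7 to 51.4) and was called higher there than in pDC-like cells, at a log2 fold of 1.34 ± 0.12 (edgeR adjusted p 3.13e-11). Vsig4, a macrophage complement receptor reported in mice to associate with Ms4a6d, was not seen in red pulp macrophage-like cells of WT panobinostat (89 cells), against 46.7 CPM on 31 UMIs in WT vehicle. Trem2, a phagocyte receptor, was not seen in WT panobinostat either, against 13.6 CPM on 9 UMIs in WT vehicle. Clec7a was not analysed here.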

How the data were processed

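The deposited matrix of 1 capture gives whole-number UMI counts for each barcode and feature, per the file headers, with genes, 6 hashtags and 2 antibody tags from 3 libraries that share the same 38717 barcodes. Cell Ranger 3.1.0 and Seurat 3.1.0 are named in the submitters' processing notes, with no role or order given. The hashtag names carry disease state and a treatment code, D5W being read as dextrose vehicle and LBH as panobinostat. Each barcode was assigned by a negative binomial threshold per hashtag (99% point). Of the barcodes, 22521 had 1 hashtag, 12653 several and 3543 none. Cells needed 500 genes and at most 10% mitochondrial UMIs, and simulated-doublet scores of 0.5 or more removed 2089 of 21288 cells.

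Cells were clustered on 2000 variable genes (Leiden 0.10.2, resolution 1, 30 components) and named by marker sets, with clusters that missed the naming rule left unnamed. UMIs were summed per class and hashed sample with 20 or more cells and tested with edgeR 4.0.16 (R 4.3.3, TMM scaling, filterByExpr, Benjamini-Hochberg over all genes tested). DESeq2 1.42.0 was an alternative, as were another hashtag call, doublet thresholds, resolutions, thinning, no TMM scaling, no filter and leaving out each sample. Scripts were tested on simulated data. Intervals and floors (3 counts) cover counting error only.

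The members and gene lists were chosen with earlier results of these data known. Named genes were the 5 members, family genes with 50 or more UMIs, the 5 genes nearest each member, up to 4 interferon genes per direction by adjusted p, 4 reported partners and the leading 5 genes of clusters.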

Additional observations from a re-analysis of the deposited data

Results flagged for a closer look

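Among 40 groups of samples looked at for a value far from the others, 3 such values occurred, and chance gives about 1 in 20 groups. All concerned Ms4a6d, which rested on few UMIs. In cDC1-like cells leukemia vehicle 2 had 1.62 CPM, the highest of the 6 hashed samples. In pDC-like cells leukemia panobinostat 1 had 0.684 CPM, the highest of the 6 hashed samples and also of the 4 leukemia samples.

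For Ms4a4c in pDC-like cells, panobinostat over vehicle gave a ratio of 1.78 among leukemia samples and of 0.981 among WT samples. The WT values were 41.9 CPM with panobinostat, on 9 UMIs in 40 cells, against 42.7 CPM with vehicle, too close to give a direction. For Ms4a6c in cDC2-like cells, the leukemia ratio was 0.945 and the WT ratio 1.17. The difference between these ratios was not tested.

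Without the Wfdc21-led cluster, the panobinostat change in leukemia less that in WT in mature DC-like cells was 1.81 for Ms4a4c, 1.78 for Ms4a6c and 2.24 for Ms4a6b (log2). These values hold the panobinostat values that chose the genes and rest on 1 WT sample per treatment. They also follow a choice made after the data were seen, so they are a description. Beside them, the Dkk2-led cluster made up 12.7% of the class in WT panobinostat, against 44.7% in WT vehicle, and its part was not tested.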

How the results depend on the processing

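Counts are members called, and here Ms4a4b and Ms4a6d are counted wherever they were tested. Where they passed the low-count filter through the higher group alone, their calls add no support. The share of all genes called in each setting is not given here. In cDC2-like over mature DC-like cells (2 called), 1 was called with the ratio hashtag call, with cells thinned to 2000 UMIs and without the block for the hashed sample, 4 with doublet score under 0.3, at Leiden resolution 0.5, with no TMM and without the Wfdc21-led cluster, and 1 to 4 with 1 sample left out. Mature DC-like over pDC-like gave 3 with only the pair of classes fitted and 1 without the Wfdc21-led cluster, and mature DC-like over cDC1-like gave 3 under each. Leukemia over WT in cDC1-like cells (0 called) gave 2 with no doublet filter, at resolution 0.5, with no TMM and with no filter, 1 with doublet score under 0.3 and at resolution 2, and 0 to 1 with 1 sample left out. In cDC2-like cells (0 called) it gave 1 with the ratio call and in the Mmp9-led cluster alone, 4 with no filter, and 0 to 2 with 1 sample left out. In mature DC-like cells (5 called, Ms4a4b and Ms4a6d through leukemia samples alone) it gave 3 thinned, 0 without the Wfdc21-led cluster, and 3 to 5 with 1 sample left out. The interaction is a description here, so no members are counted for it. Of Ms4a4c, Ms4a6c and Ms4a6b, those with a positive panobinostat fold numbered 2 in cDC2-like cells but 1 in leukemia samples alone, with or without the replicate block, and 1 to 2 with 1 sample left out. In mature DC-like cells they numbered 0 but 1 with the ratio call, 1 in leukemia samples alone, with or without the replicate block, and 0 to 1 with 1 sample left out. Reversed folds were -0.05 for Ms4a4c in mature DC-like over pDC-like cells without the Wfdc21-led cluster, and, for Ms4a6d in pDC-like over cDC1-like cells, 0.36 with no doublet filter and -2.10 to 0.18 with 1 sample left out (0.18 without leukemia vehicle 2). The cause was not tested. Of 508 class folds, 476 kept direction and call. Ms4a4b and Ms4a6d, and the 40 pDC-like cells of WT panobinostat, had too few UMIs for firm values.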
